A study of Rattus norvegicus with 6 samples.

Results

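The Kcn family is the set of genes named for potassium channel subunits, and its members were taken as every gene symbol in the count table that starts with Kcn. All were classed as channel subunits but Kcnrg, a channel regulator gene, which was not tested. There were 91 such symbols among 17487, standing on 110 rows of the table, and the rows of a symbol were summed. RNA had been sequenced from heart tissue of 6 rats (adult males of the outbred Wistar strain), with 1 library from each rat according to the labels. The 3 doxorubicin rats had been injected in the tail vein with doxorubicin hydrochloride, an anthracycline cancer drug that damages the heart, at 3.75 mg/kg once a week for 4 weeks, and the 3 control rats had been given 0.9% sodium chloride on the same schedule. The labels do not state the region of the heart. In bulk tissue of this kind, fewer cells of a type and less RNA per cell cannot be told apart.

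Potassium channels carry the outward current that ends each heartbeat's action potential and holds the resting potential between beats. Different channels act at different times. The transient outward current gives the early notch, delayed rectifiers repolarise the cell, strong inward rectifiers set the resting potential, and channels opened by acetylcholine, by a fall in ATP or by stretch adjust the duration to the state of the cell. Pore-forming subunits assemble with accessory subunits that set how fast the pore opens and how much of it reaches the membrane. Rat and mouse ventricle repolarise mainly through the transient outward and other fast voltage-gated currents, and the human ventricle relies more on the rapid and slow delayed rectifiers. Loss of repolarising current is a known cause of a long QT interval, which is also a known side effect of anthracyclines.

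Libraries held 2219685 to 3508282 counts, so 3 counts, the smallest level called detectable here, corresponded to 0.852 to 1.33 CPM (counts per 1000000, with library sizes scaled by the trimmed mean of M-values, TMM). The Kcn family took 0.102% to 0.140% of the counts of a library. Control library 1 stood apart on the first principal component of all tested genes, at -43.3 against -4.83 to 26.6 for the other libraries. It also held 164 CPM of Myl7, the atrial myosin light chain gene, against 2.06 to 6.42 CPM in the other libraries. Defining cardiomyocyte markers were abundant in every library. The 7 of 8 listed markers in the table summed to 82974.5 to 107638 CPM in controls and 80688 to 83897 CPM in doxorubicin hearts. Of these 7, 6 were lower and 1 was higher in doxorubicin hearts, with a median log2 fold change of -0.14 and 0 past the adjusted threshold. The 5 genes with the most Kcn counts, Kcng2, Kcnj11, Kcnh2, Kcnk3 and Kcnq1, held 77.4% of the family's counts. Counts are not scaled by transcript length, so levels are compared between rats and not between genes.

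No Kcn transcript passed the test after doxorubicin. With edgeR's quasi-likelihood test and Benjamini-Hochberg adjustment over all tested symbols, 0 of 22 tested members had an adjusted p under 0.05, against 0.0543% of the 9205 symbols tested. At an unadjusted p under 0.05 there were 2 members, 9.09% of those tested, against 8.1% of all tested symbols, so the family's share lay near the background. DESeq2 was fitted without the low-count filter, to 66 members. It called 0 at its adjusted threshold and 1 of the 66 at an unadjusted p under 0.05, against 0.721% and 5.54% of the symbols with such a p. The groups did not overlap for 1 member, 4.55%, against 13.4% of all tested symbols. Log2 fold changes were positive for 10 members and negative for 12, with a median of -0.05 beside 0.02 for all tested symbols. Summed over all members, the level was 1438, 1092 and 1087 CPM in control rats 1, 2 and 3 and 1005, 1142 and 1345 CPM in doxorubicin rats 1, 2 and 3, so the groups overlapped. None of the 22 had a fitted change of 2-fold or more in either direction. For 9 of them the 95% interval of the log2 fold change lay wholly inside a 2-fold change, and for the other 13 it reached past a 2-fold change in at least 1 direction.

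The low-count filter kept 22 of the 91 members, 24.2%, against 52.6% of all symbols. Of the rest, 25 were listed at 0 in all libraries and 44 had some counts, at most 14 in any library. A member could pass the filter on the strength of 1 group alone, so the tested members are not a sample of the whole family.

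**Figure D1:**
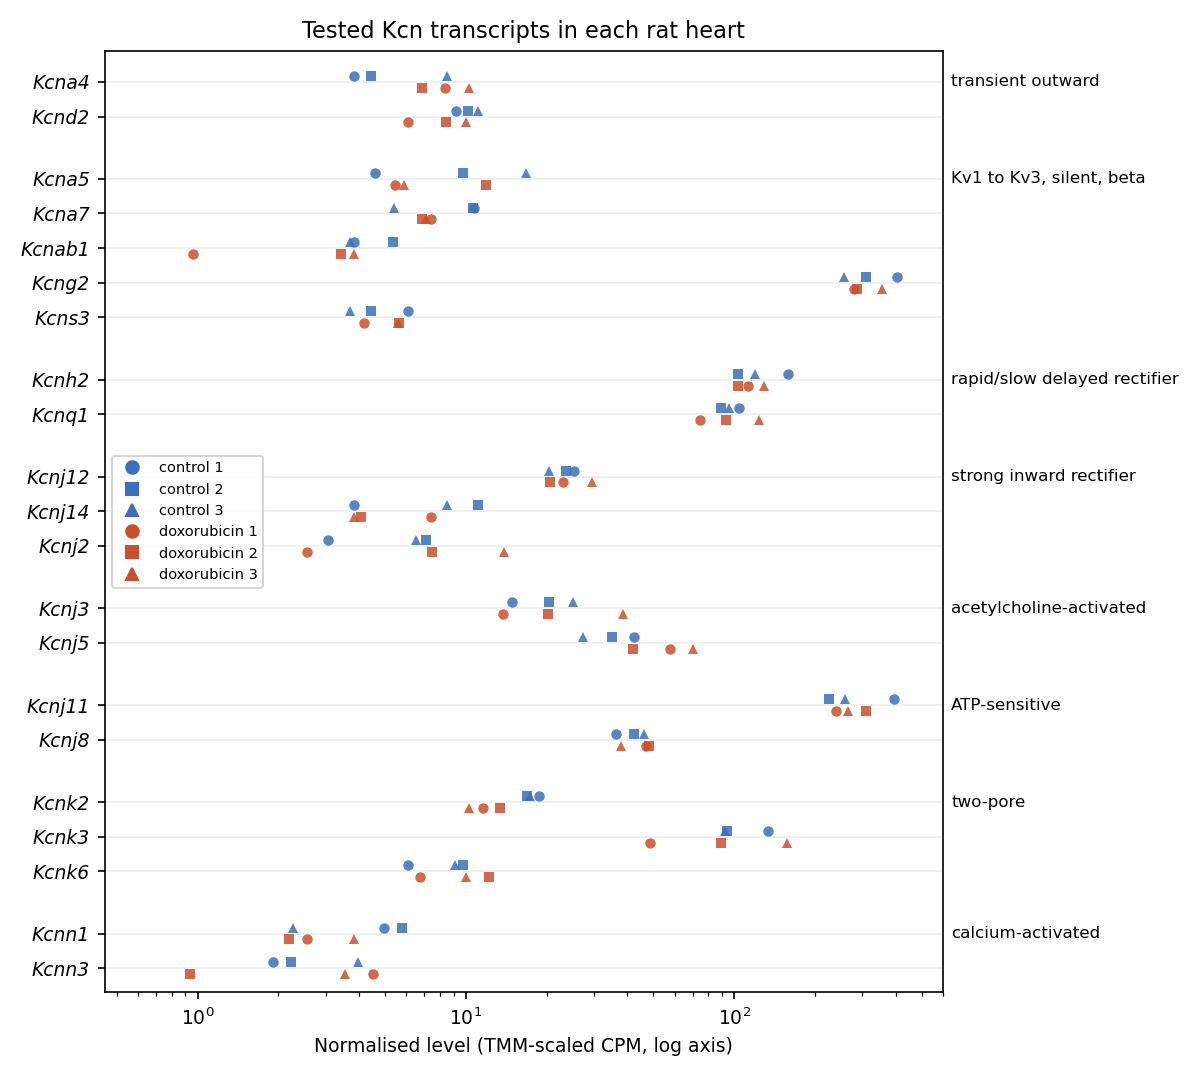
Each point is the level of a Kcn transcript in 1 heart, for 21 of the 22 tested, as TMM-scaled CPM on a log axis, with control hearts in blue, doxorubicin hearts in orange-red and the rats of a group by symbol shape. Levels within a group spread as far as the distance between the groups for most members, and among these the 2 groups are apart only for Kcnk2.

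Channels opened by acetylcholine are tetramers of the subunits encoded by Kcnj3 and Kcnj5, which are abundant in atria and nodes, slow the heart under vagal tone and are also found in ventricle. Kcnj5 had the smallest p of the family. It reached 42.4, 35.1 and 27.3 CPM in control rats 1, 2 and 3 and 57.5, 42.1 and 70.4 CPM in doxorubicin rats 1, 2 and 3. The highest control value lay just above the lowest doxorubicin value, so the groups touched, and with scaling by library size alone they did not (27.4 to 37.7 against 43.2 to 73.4 CPM). Means were 34.9 ± 7.56 CPM in controls against 56.7 ± 14.2 CPM in treated hearts (each error here and below is the SD over n = 3 rats), from 79 to 111 and 135 to 239 counts. The log2 fold change was 0.71 (SE 0.24, 95% interval 0.18 to 1.23), a 1.63-fold higher level, and the edgeR adjusted p was 0.42. Without control library 1, which held the atrial myosin transcript, the difference was 0.88. It was 0.55 without control library 3 and 0.53 without doxorubicin library 3, and in both cases the unadjusted p no longer lay under 0.05. The 5 atrial markers had no shared direction. Of the 3 tested, 1 was higher and 2 were lower in treated hearts, with a median log2 fold change of -0.88. Their summed level, 187 to 700 CPM in controls and 287 to 3286 CPM in treated hearts, was mostly Nppa, the natriuretic peptide gene that stressed ventricle also expresses, at 3252 CPM in doxorubicin rat 1. Myl7 and Myl4, the atrial myosin light chain genes, had log2 fold changes of -3.73 and -0.88, and control library 1 held the highest level of both. Sln, an untested marker of the list, had 60, 0 and 59 counts in control rats 1, 2 and 3. In doxorubicin rats 1, 2 and 3 it had 6, 1 and 0 counts. Bmp10, also untested, had at most 2 counts in a library. The part of atrial tissue in the Kcnj5 level was not tested.

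Kcnj3, the partner subunit, had 14.9, 20.4 and 25.0 CPM in controls against 13.8, 20.3 and 38.6 CPM in doxorubicin rats 1, 2 and 3. Only doxorubicin rat 3 was above the controls, and the log2 fold change of 0.26 (95% interval -0.48 to 1.01) became -0.24 without that library. The same heart had the highest level of Chrm2, the muscarinic receptor that opens this channel, at 67.8 CPM against 9.93 to 21.8 CPM in the other 5 hearts. The remaining subunits of the class, Kcnj6 and Kcnj9, were not tested, with at most 11 counts in any library. Summed over the 4 genes, the class stood at 57.3, 55.98 and 55.9 CPM in controls and at 73.5, 64.3 and 109.6 CPM in doxorubicin rats 1, 2 and 3. Every doxorubicin heart was above every control in this sum. It was singled out after the values were seen, as the sums of the other tested classes overlapped between the groups, and it was not tested. In doxorubicin rat 1, Kcnj5 (57.5 CPM) was above the control range and Kcnj3 was below it. In doxorubicin rat 2 each gene was within its own control range, with Kcnj5 (42.1 CPM) just under the highest control (42.4 CPM).

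Kcnk2 encodes a stretch- and lipid-sensitive two-pore channel that carries background current in ventricular myocytes. It was the only tested member whose groups were apart: 18.7, 16.9 and 17.3 CPM in control rats 1, 2 and 3 and 11.6, 13.4 and 10.3 CPM in doxorubicin rats 1, 2 and 3. All doxorubicin hearts were below all controls. Means were 17.6 ± 0.954 and 11.8 ± 1.56 CPM, from 38 to 61 and 35 to 43 counts. The log2 fold change was -0.58 (SE 0.27, 95% interval -1.16 to -0.004), 0.667 of the control level, with an edgeR adjusted p of 0.611. Its difference stayed negative when each library was left out in turn, from -0.68 to -0.49. The unadjusted edgeR p was 0.0487 with all libraries and 0.0519 to 0.123 with 1 left out. It lay under 0.05 in 1 of the 12 alternatives that kept Kcnk2. Kcnk2 stood on 2 rows of the table, all 262 of its counts were on 1 of them, and its level may be incomplete.

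The other tested two-pore genes did not share that direction in every heart. Kcnk3, an acid-sensitive background channel gene, had 133, 93.7 and 92.6 CPM in controls against 48.5, 89.2 and 158 CPM in doxorubicin rats 1, 2 and 3. Doxorubicin rats 1 and 3 thus held the lowest and the highest level of all 6 hearts, and the log2 fold change of -0.11 became 0.22 without rat 1 and -0.62 without rat 3. Kcnk6, a weakly conducting two-pore subunit gene, had 6.11 to 9.77 CPM in controls against 6.74 to 12.2 CPM in treated hearts, with overlapping groups. The median over these 3 tested genes of 13 in the class was -0.11, beside 0.02 for all tested symbols.

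The promoters of the genes whose values are given in most detail are shown as the 150 bases before the annotated start, from RefSeq on the build GRCr8. The submitters' processing notes name another build, mRatBN7.2, so these coordinates are not in the build of the counts. Capitals mark GGGCGG, the box bound by Sp1-type factors, found on the printed strand.

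Kcnj5 (chr8:39011097-39011246, minus strand): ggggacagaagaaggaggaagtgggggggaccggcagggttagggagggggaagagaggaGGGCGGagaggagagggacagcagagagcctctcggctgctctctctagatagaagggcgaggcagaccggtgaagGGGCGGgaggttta
Kcnk2, first start (chr13:103438643-103438792, minus strand): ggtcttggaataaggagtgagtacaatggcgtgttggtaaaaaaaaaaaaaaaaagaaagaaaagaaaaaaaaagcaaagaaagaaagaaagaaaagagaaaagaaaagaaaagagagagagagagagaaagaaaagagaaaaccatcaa
Kcnk2, second start (chr13:103494687-103494836, minus strand): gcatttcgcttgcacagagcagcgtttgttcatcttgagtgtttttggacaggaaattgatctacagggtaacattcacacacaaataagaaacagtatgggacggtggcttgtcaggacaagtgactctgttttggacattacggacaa
Kcna4 (chr3:114215186-114215335, plus strand): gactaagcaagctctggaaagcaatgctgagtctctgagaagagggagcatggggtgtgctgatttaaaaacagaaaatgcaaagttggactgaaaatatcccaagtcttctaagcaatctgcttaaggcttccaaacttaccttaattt
Kcnd2 (chr4:50742335-50742484, plus strand): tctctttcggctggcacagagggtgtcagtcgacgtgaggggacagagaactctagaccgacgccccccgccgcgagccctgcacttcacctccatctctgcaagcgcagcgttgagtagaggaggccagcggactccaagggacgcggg

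Motifs were searched on both strands in the 250 bases before each start: the TATA box as TATAAA, the CCAAT box by its name, the Sp1-type box as GGGCGG, and the palindrome bound by Iroquois factors as ACANNTGT. None of these contains another. Kcnj5 held GGGCGG 2 times in the printed stretch, and the stretches of Kcnk2, Kcna4 and Kcnd2 held none of the 4 motifs. Promoters were found for 62 of the 91 members and for 12 of the 22 tested, some with several starts. GGGCGG was present in 42.9% of 14 promoters of tested members and in 30.5% of 33469 promoters of all genes. The second set was not limited by the low-count filter, so the 2 sets are not matched for expression. TATAAA was in 0 of the 14 and in 12.9% of all, CCAAT in 14.3% and 34.0%, and ACANNTGT in 7.14% and 6.71%. The median GC content of these stretches was 58.2% for tested members and 51.2% for all. A match describes letters in this window and not a bound site. In the RefSeq gene list of GRCr8, Kcnj5 lies beside Kcnj1, the kidney inward rectifier gene, which was listed at 0 on 5 rows in every heart. The level of Kcnj1 may be incomplete, as it stands on several rows.

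**Figure D2:**
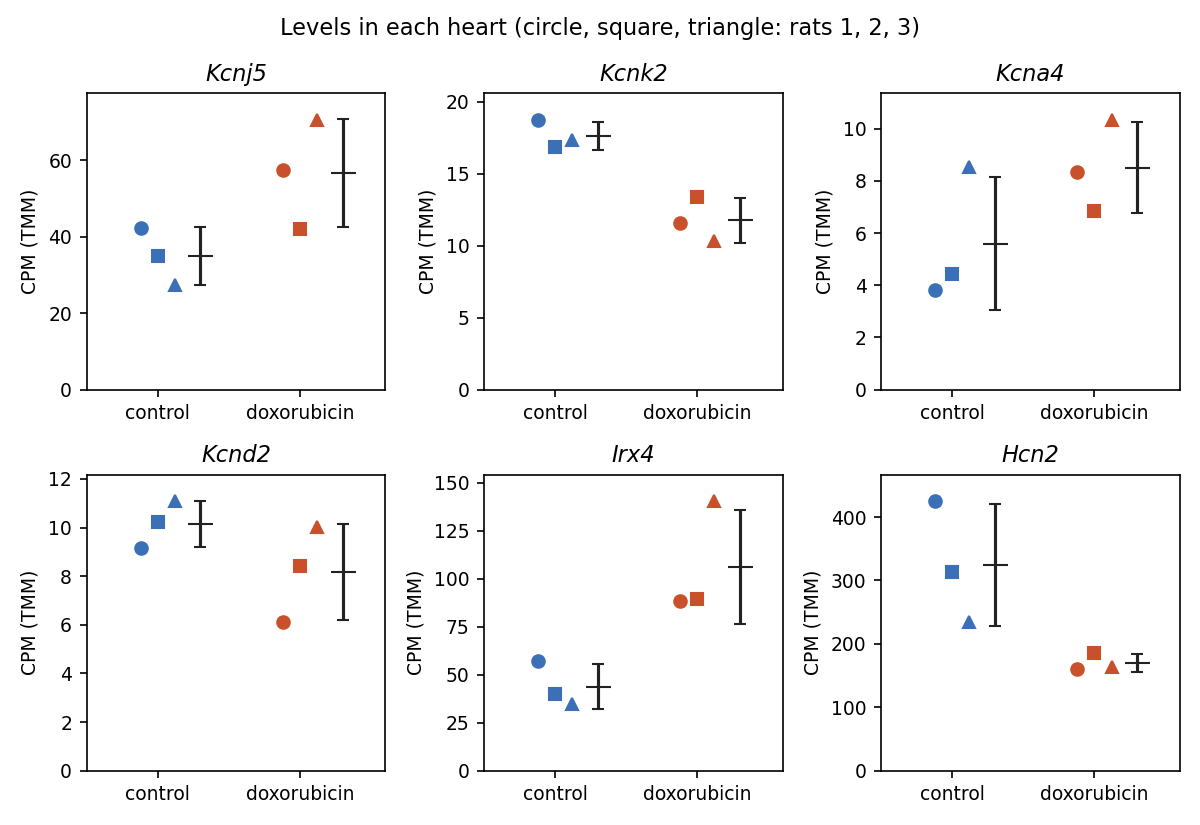
Each panel shows the TMM-scaled CPM of 1 gene in the 3 control hearts (blue) and the 3 doxorubicin hearts (orange-red), with the group mean and SD as a black bar to the right of the points. Kcnk2, Irx4 and Hcn2 have groups that are apart, and Kcnj5, Kcna4 and Kcnd2 overlap.

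The transient outward current is carried in rat ventricle by pores from Kcnd2 and Kcnd3, with Kcnip2 as their accessory subunit, and by Kcna4, whose slower channel is more prominent at birth and in the inner wall. Kcna4 had 3.82, 4.44 and 8.52 CPM in controls against 8.35, 6.86 and 10.3 CPM in doxorubicin rats 1, 2 and 3. Control rat 3 lay among the doxorubicin hearts. The log2 fold change was 0.57 (SE 0.41, 95% interval -0.30 to 1.44) with an edgeR adjusted p of 0.753, on 10 to 35 counts, and it was 1.04 without control library 3. Kcnd2 had 9.16, 10.2 and 11.1 CPM in controls against 6.10, 8.42 and 10.02 CPM in treated hearts. The doxorubicin values reached into the control range, with a log2 fold change of -0.31 (95% interval -1.03 to 0.41).

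The balance of the pair was taken as the Kcna4 share of Kcna4 and Kcnd2 counts, chosen after the values were seen. Control rat 1 stood at 29.4% (16.8 to 46.2, the 95% interval by Wilson's method), rat 2 at 30.3% (17.4 to 47.3) and rat 3 at 43.5% (32.4 to 55.2). Doxorubicin rat 1 stood at 57.8% (43.3 to 71.0), rat 2 at 44.9% (31.9 to 58.7) and rat 3 at 50.7% (39.2 to 62.2). Group means were 34.4% ± 7.88 and 51.1% ± 6.45. Every doxorubicin heart was above every control heart, but the intervals of doxorubicin rat 2 and control rat 3 overlapped almost wholly, on 49 and 69 counts. Such intervals hold counting error alone and leave out variation between rats. The sources used here describe no molecular identifiers to tell copies of a fragment apart, so the intervals may be too narrow. A share of this kind was computed for 4 pairs, and in the 3 others the groups overlapped.

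Kcnd3 had 1 count in all 6 libraries together over 3 rows, and Kcnip2 had 18 counts over 3 rows, 1 to 5 per library. The other accessory genes of the class were also low, with Kcnip3 at 1 to 14 counts, the highest total of any untested member, and Kcnip1 and Kcnip4 listed at 0. Kcnd3, Kcnip2 and Kcnip1 are among 10 members that stand on several rows of the table, of which only Kcnk2 was tested. Of all genes counted, 16.4% of 599 symbols on several rows were tested, against 53.9% of 16888 symbols on 1 row. The levels of Kcnd3, Kcnip2 and Kcnip1 may therefore be incomplete, and the part of repeated rows in their low counts was not tested.

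**Figure D3:**
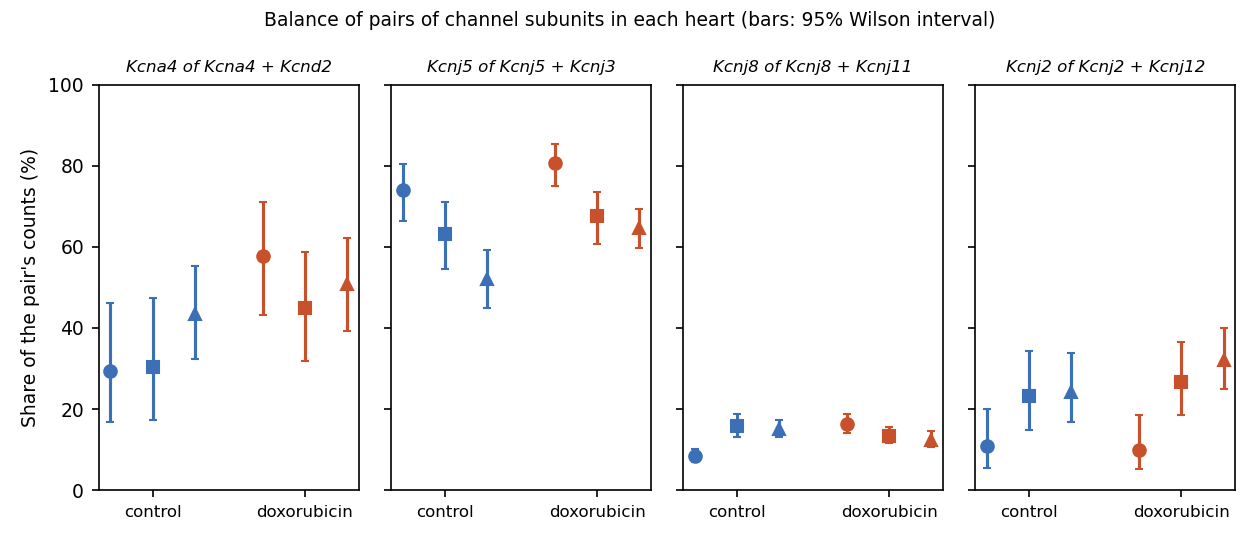
Points show the share of the first gene in the counts of a pair of subunits in each heart, in percent, with bars for the 95% Wilson interval, control in blue and doxorubicin in orange-red. The Kcna4 share is 29.4% to 43.5% in control and 44.9% to 57.8% in doxorubicin hearts, and the groups overlap in the other 3 panels.

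Among the faster delayed rectifiers and their silent and beta subunits, 6 of 26 members were tested, 1 with a positive and 5 with a negative log2 fold change, and 0 passed. The median was -0.19, beside 0.02 for all tested symbols, and it was -0.0027 without control library 1. Kcna5, the gene of the ultrarapid current, had 4.58, 9.77 and 16.8 CPM in controls against 5.46, 11.9 and 5.89 CPM in doxorubicin rats 1, 2 and 3. Its level varied more among the controls than between the group means, and the log2 fold change of -0.45 became 0.12 without control library 3. Kcng2, a gene of a silent subunit, which forms no channel alone and modifies those it joins, had 404, 311 and 256 CPM in controls against 279, 288 and 356 CPM in doxorubicin rats 1, 2 and 3. It had the most counts of the family, 699 to 1208 per library, and a log2 fold change of -0.07 (95% interval -0.51 to 0.37). Kcna7, a muscle voltage-gated subunit gene, had 10.7, 10.7 and 5.40 CPM in controls against 7.38, 6.86 and 7.07 CPM in treated hearts. The doxorubicin values lay close together inside the control range. The beta subunit gene Kcnab1 and the silent subunit gene Kcns3 were tested on 3 to 19 counts per library, and their groups overlapped.

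The rapid delayed rectifier is formed by Kcnh2 and the slow one by Kcnq1 with Kcne1, and loss of any of these lengthens the QT interval in people. Kcnh2 had 159, 103 and 119 CPM in controls against 113, 103 and 129 CPM in doxorubicin rats 1, 2 and 3. Control library 1 was the highest of the 6, and the log2 fold change of -0.15 (95% interval -0.57 to 0.28) was 0.05 without it. Kcnq1 had 104, 89.3 and 95.7 CPM in controls against 74.5, 93.6 and 124 CPM in treated hearts. The doxorubicin hearts spread on both sides of the controls, with means of 96.4 ± 7.50 and 97.3 ± 24.9 CPM and a log2 fold change of 0.01 (95% interval -0.43 to 0.45). Both intervals lay inside a 2-fold change in either direction, which does not show equal levels. The minK-related genes of the class were too low to be tested, with 0 to 3 counts per library for Kcne1, 0 to 10 for Kcne2, 0 to 5 for Kcne3 and 1 to 3 for Kcne4.

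Strong inward rectifiers come from Kcnj2, Kcnj12, Kcnj4 and Kcnj14, and of these Kcnj4 had 1 count in all. Kcnj12 had 25.2, 23.5 and 20.4 CPM in controls against 23.1, 20.6 and 29.5 CPM in doxorubicin rats 1, 2 and 3. The groups overlapped, and the log2 fold change was 0.09 (95% interval -0.44 to 0.61). Kcnj2, whose loss causes a long QT syndrome with periodic paralysis in people, had 3.05, 7.11 and 6.53 CPM in controls against 2.57, 7.49 and 13.9 CPM in treated hearts. Only doxorubicin rat 3 stood above the controls, and the log2 fold change of 0.52 became -0.14 without it. Kcnj14 had 7.81 ± 3.69 and 5.09 ± 1.99 CPM, a log2 fold change of -0.61 (95% interval -1.60 to 0.37), on 10 to 30 counts. The median over these 3 tested genes was 0.09, and -0.14 without doxorubicin library 3.

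ATP-sensitive channels open when the cell runs low on energy, and their pores are encoded by Kcnj11, the main cardiomyocyte form, and Kcnj8, which is abundant in pericytes and vascular smooth muscle. Kcnj11 had 394, 227 and 260 CPM in controls against 240, 311 and 265 CPM in doxorubicin rats 1, 2 and 3. Control library 1 was the highest, and the log2 fold change of -0.11 (95% interval -0.58 to 0.36) was 0.17 without it. Kcnj8 had 41.6 ± 5.03 and 44.3 ± 5.76 CPM, a log2 fold change of 0.09 (95% interval -0.35 to 0.53). The 7 smooth muscle and pericyte markers summed to 497 to 644 CPM in controls against 420 to 595 CPM in treated hearts, and their part in the Kcnj8 level was not tested. The Kcnj8 share of Kcnj8 and Kcnj11 counts was 8.42% in control library 1 and 12.5% to 16.3% in the other 5 hearts. The sulfonylurea receptor Abcc9, the regulatory subunit of these channels in heart and vessels, was also lowest in control library 1, at 105 CPM against 287 to 353 CPM elsewhere. Its log2 fold change of 0.35 was -0.0083 without that library. Abcc8, the related receptor best known from pancreas and atria, had 57.7 ± 11.0 and 60.7 ± 3.51 CPM.

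Calcium-activated channels link calcium entry to repolarisation. The small-conductance genes Kcnn1 and Kcnn3 were tested on 3 to 14 counts per library, with log2 fold changes of -0.54 (95% interval -1.63 to 0.54) and 0.10 (95% interval -1.17 to 1.36). The groups overlapped for both. Kcnma1, the large-conductance pore of smooth muscle, had 0 to 2 counts per library and its partner Kcnmb1 had 1 to 4, although smooth muscle markers were present in each heart. Kcnn2, Kcnn4 and the brain-type inward rectifier gene Kcnj10 were listed at 0. Kcnn2 stood on 2 rows and Kcnn4 on 4, so their levels may be incomplete, as for Kcnd3 and Kcnip2.

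**Figure D4:**
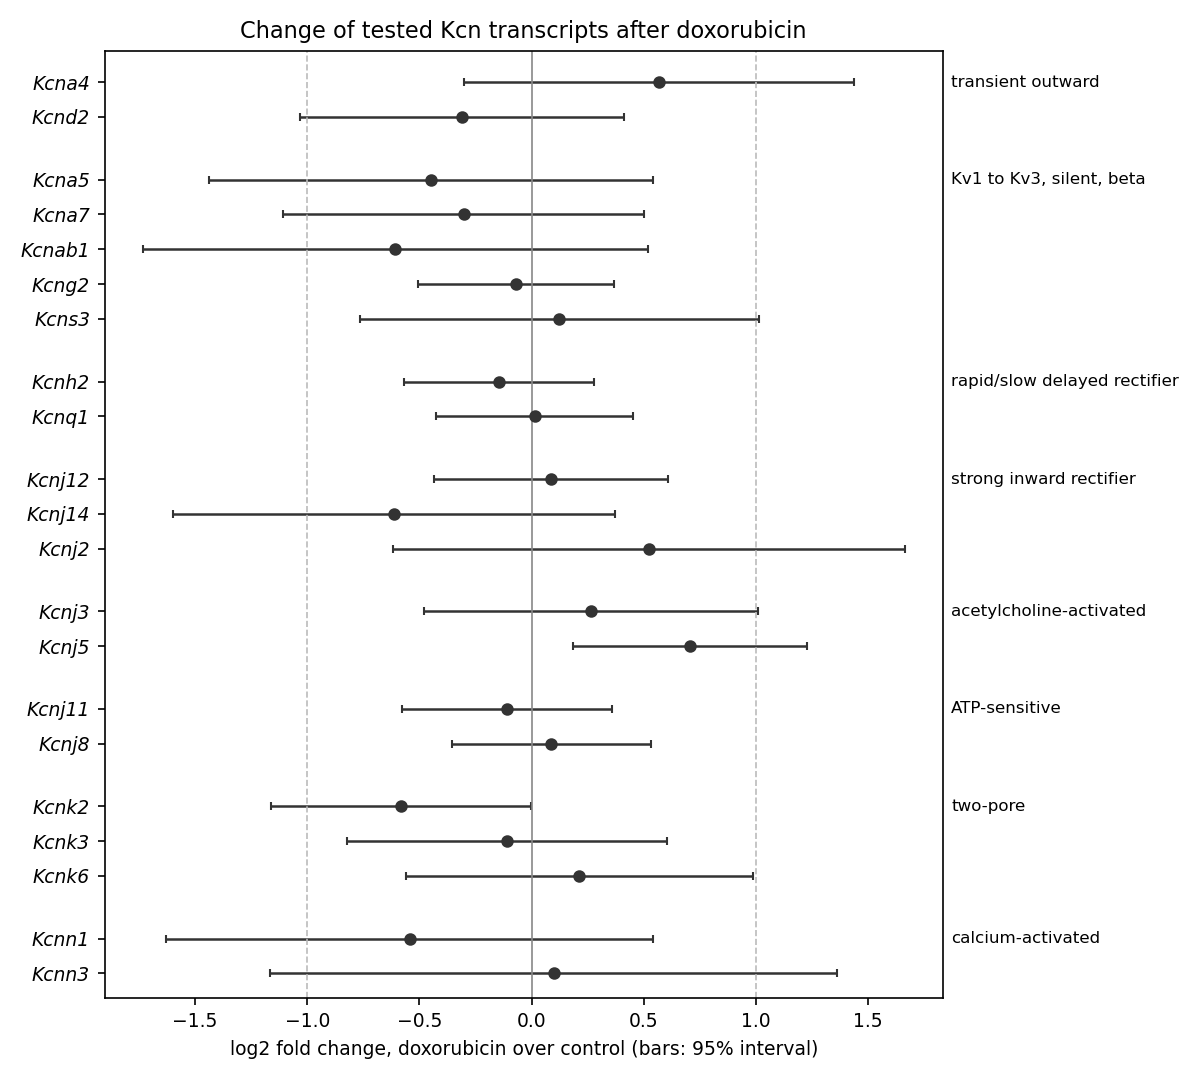
Points are the log2 fold change, doxorubicin over control, of 21 of the 22 tested members, grouped by current class, and bars are its 95% interval from edgeR's fit. Dashed lines mark a 2-fold change. Of the intervals drawn, all but those of Kcnj5 and Kcnk2 include 0, and no point lies beyond a dashed line.

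Among untested members with some counts, the groups were apart for 4 of 44 (9.09%), against 7.88% of the 3845 symbols with some counts that were not tested. Kcne3, a minK-related accessory gene, had 5, 4 and 5 counts in control and 2, 1 and 0 counts in doxorubicin rats 1, 2 and 3. Kcne1 and Kcnj13 lay the other way, with at most 3 counts in a library, so single counts decide whether such groups overlap. These genes were chosen after their values were seen. When edgeR was fitted with no filter, 66 members entered, 0 passed the adjusted threshold and 3 (4.55%) had an unadjusted p under 0.05, against 7.49% of 13050 symbols. Kcnj5 and Kcne3 were among the 3. After Kcnip3, the untested members with the highest totals were Kcnv2 and Kcnk5, with 35 and 33 counts over the 6 libraries.

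Partners of these channels were taken from a list of 22 genes for auxiliary subunits, anchoring proteins, pacemaker channels and regulators of channel genes. The filter kept 14, 8 with a positive log2 fold change and 6 with a negative one, and 6 were listed at 0, among them Dpp10 and Hcn3. With edgeR, 0 of the 14 passed the adjusted threshold over all tested symbols and 2 (14.3%) had an unadjusted p under 0.05, against 8.1% of all tested symbols. DESeq2 called the same 2, Irx4 and Hcn2, at its adjusted threshold, against 0.721% of symbols. The groups were apart for these 2, or 14.3%, near the 13.4% of all tested symbols.

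Irx4 encodes an Iroquois transcription factor of ventricular myocytes, a family in which Irx5 is known to repress Kcnd2 across the mouse ventricular wall. It had 56.9, 39.98 and 34.6 CPM in controls against 88.3, 89.5 and 140 CPM in doxorubicin rats 1, 2 and 3. All doxorubicin hearts were above all controls. The mean was 43.8 ± 11.6 CPM in controls against 106 ± 29.7 CPM in treated hearts, and the log2 fold change was 1.28 (SE 0.24, 95% interval 0.75 to 1.80), or 2.43-fold, with an edgeR adjusted p of 0.0833. Irx4 passed the adjusted threshold with DESeq2 (0.00155), in edgeR with no filter (0.00135) and in edgeR without doxorubicin library 2 (0.0376), and its edgeR adjusted p reached 0.39 without control library 3. Irx3 and Irx5 had log2 fold changes of -0.07 and 0.08, with overlapping groups. Irx4 is also 1 of the 3 ventricular markers listed here. The other 2, the ventricular myosin light chain genes Myl2 and Myl3, had log2 fold changes of -0.02 and -0.39.

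Hcn2 encodes a channel of the pacemaker current, which conducts potassium and sodium and is also found in ventricular myocytes. It reached 425, 314 and 234 CPM in controls against 160, 186 and 164 CPM in doxorubicin rats 1, 2 and 3. The doxorubicin hearts lay close together and below each control. The log2 fold change was -0.93 (SE 0.22, 95% interval -1.40 to -0.46), 0.525 of the control level, with an edgeR adjusted p of 0.157. It was -0.68 without control library 1, the highest of the controls, and Hcn2 passed the adjusted threshold with DESeq2 (0.0131) and in edgeR with no filter (0.0204). Hcn4, the main pacemaker channel gene of the sinus node, had 17.4 ± 5.19 and 13.8 ± 6.71 CPM with overlapping groups.

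The remaining tested partners overlapped between the groups. Dlg1, a scaffold that anchors Kcna5 and Kcnj2 channels, had 22.9 to 30.2 CPM in controls against 27.6 to 58.1 CPM in treated hearts, and the log2 fold change was 0.51 (95% interval -0.11 to 1.12). Akap9, the scaffold of the Kcnq1 complex, was lowest in control library 1 at 21.8 CPM, and its log2 fold change of 0.37 was 0.05 without that library. Cav3, the muscle caveolin, had 213 ± 75.8 and 171 ± 6.87 CPM. The regulators of G-protein signalling Rgs4 and Rgs6, and Gnb5, the partner of Rgs6 in speeding the closure of acetylcholine-activated channels, had log2 fold changes of -0.38, -0.20 and 0.18.

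Markers of other cell types were summed beside these results. The 7 macrophage markers summed to 153 to 170 CPM in controls against 184 to 283 CPM in treated hearts, with 7 of 7 higher and 0 past the adjusted threshold. Kcna3, the voltage-gated channel of lymphocytes and macrophages, had 1 count in all libraries together. Kcnn4, the calcium-activated channel of blood cells, was listed at 0 on 4 rows, and its level may be incomplete. The 6 endothelial markers summed to 1041 to 1144 CPM in controls against 853 to 1151 CPM in treated hearts, and the 5 fibroblast markers to 1137 to 1514 and 1299 to 1699 CPM. Of the 6 nerve and Schwann cell markers 2 were at 0, and the list summed to 9.73 to 25.0 CPM over the hearts. The 3 ventricular markers, Myl2, Myl3 and Irx4, summed to 23248 to 38006 CPM in controls and 24589 to 26734 CPM in treated hearts. The 4 lymphocyte markers in the table summed to 3.54 to 7.38 CPM over all hearts. The 5 red cell markers, with Alas2 at 0, summed to 1915 to 6899 and 668 to 2519 CPM. The part of cell composition in any Kcn level was not tested.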

How the data were processed

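Watchmaker mRNA libraries from 6 rat hearts were sequenced on a NovaSeq instrument, per the labels' protocols. The authors deposited raw read counts per gene symbol for all libraries in 1 table, with no normalization. FastQC, Trimmomatic, STAR and HTSeq and the build mRatBN7.2 are named, without versions, in the submitters' processing notes; annotation, counting mode and strand setting are not given in the sources used here.

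Rows of a symbol were summed. Treatment was tested in edgeR 4.0.16 (under R 4.3.3) by quasi-likelihood, with TMM factors, robust dispersion and filterByExpr (minimum count 10, minimum total 15), with p-values adjusted by Benjamini-Hochberg over 9205 symbols. Intervals use the fit's degrees of freedom, and the SE is the log2 fold change's size over the square root of F. The fit was checked on simulated counts, with changes larger than any fitted here for a Kcn member. The check did not try smaller changes or changes in low-count genes. Libraries come from separate rats.

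The members, current classes and partner and marker lists were chosen with earlier results of these data known. Named genes were tested members with a mean of at least 5 CPM, an unadjusted p under 0.05 or groups apart, and every tested partner. Other genes given by name were chosen after their values were seen. Some genes that enter the fits and counts are not reported here by name. Alternatives were median-of-ratios factors, library size only, no filter, a mean CPM of at least 1, DESeq2 1.42.0, the replicate number as a block, symbols on 1 row only and leaving out each library. Figures used matplotlib 3.10.9, and shares scipy 1.17.1 (Python 3.11.15). All 91 symbols matched the RefSeq gene list of GRCr8, used for names and neighbours.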

Additional observations from a re-analysis of the deposited data

How the results depend on the processing

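All 13 alternatives were planned. No Kcn member passed the adjusted threshold in any of them, DESeq2 included. Of 17 named Kcn genes, 8 kept their direction throughout, as did 7 of 14 partners.

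The count of members at an unadjusted p under 0.05 was 2 as reported. It was 1 with library size only, the replicate block, symbols on 1 row only, and each library left out. It was also 1 with a mean CPM of at least 1 and with DESeq2, which fitted 28 and 66 members. That member was Kcnj5 except without control library 3 (Kcna4) and without doxorubicin library 3 (Kcnk3). The count with groups apart, 1 of 22 as reported, was 2 of 22 with library size only. It was 0 of 21 with symbols on 1 row only, which drops Kcnk2. With no filter and with DESeq2 it was 5 of 66, low-count members included. It was 2 to 6 of 22 or 23 members with a library left out, where groups are smaller and separate more readily. The share over all symbols was not computed for these settings, so the counts are not read as a change in the family. Partners passing, 0 of 14 as reported, were 2 with no filter and with DESeq2 and 0 to 1 with a library left out. The share of all symbols passing was 0.721% with DESeq2. It was not computed with no filter or with a library left out, so those counts are not read as a change in the partners.

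Library size only moved the median of all genes to 0.10 and turned Kcng2 and Irx3 to 0.030 and 0.032, both below that median. With the replicate block Kcnq1 became -0.011. Deviations of same-numbered libraries had correlations of -0.19 to 0.021 over 3 pairs, too few to settle whether the numbers pair the rats.

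With each library left out, log2 fold changes crossed 0 for Kcna5 (-0.88 to 0.12), Kcng2 (-0.22 to 0.13), Kcnh2 (-0.26 to 0.051), Kcnj11 (-0.25 to 0.17), Kcnj12 (-0.063 to 0.20), Kcnj2 (-0.14 to 0.94), Kcnj3 (-0.24 to 0.55), Kcnk3 (-0.62 to 0.22) and Kcnq1 (-0.19 to 0.18). Among partners it crossed 0 for Abcc8 (-0.0077 to 0.24), Abcc9 (-0.0083 to 0.65), Cav3 (-0.47 to 0.019), Irx3 (-0.25 to 0.19), Irx5 (-0.17 to 0.33), Gnb5 (-0.026 to 0.33) and Rgs6 (-0.36 to 0.074). Class medians ranged from -0.28 to -0.0027 for the faster delayed rectifiers, from -0.49 to 0.22 for two-pore genes and from -0.14 to 0.20 for strong inward rectifiers. Which property of a library caused these shifts was not tested. Of the 69 untested members none exceeded 14 counts in a library, which limits what could be seen.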
